A study of Mus musculus with 6 samples.

Results

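The renin-angiotensin system genes described here are Agt, Ace, Enpep, Agtr1a and Agtr2, taken by gene symbol from a deposited table of lung RNA sequencing, 5 genes of the 18174 listed. The lungs came from male wild type C57BL/6J mice, an inbred laboratory strain, with food and water freely available. The control group stayed at room temperature, whose value the labels do not give, and the cold group was held at 4 °C for 6 h. Each group has 3 libraries, called biological replicates without a statement that each came from its own animal, so p-values measure the spread between these libraries. Age is not given, and the sample titles name the tissue as lung without saying which part. In such a bulk sample a change in the number of cells of a type and a change in RNA per cell cannot be told apart.

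The renin-angiotensin system is a chain of secreted peptides that raises vascular tone and salt retention. Angiotensinogen, the product of Agt, is cut by renin to angiotensin I, and angiotensin converting enzyme, the product of Ace, trims that to angiotensin II. The lung is a classical site of this step, because its capillary endothelium carries the enzyme on its surface facing the blood. Aminopeptidase A, the product of Enpep, turns angiotensin II into angiotensin III. Angiotensin II acts through the type 1 receptor, which mice make from Agtr1a and Agtr1b, and through the type 2 receptor, the product of Agtr2. A counter-acting branch runs through angiotensin 1-7 and its receptor, the product of Mas1.

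The promoter windows of RefSeq on build GRCm38.p6, from 250 bases before to 50 bases after an annotated start, are shown for the enzyme genes with the largest rise among the members and for the substrate gene, which was not called. Of the 5 members 4 have a window in the table, and Agtr1a is the other member. Capitals mark every match, on either strand, to TATAAA (the TATA box), GGGCGG (a GC box), AGAACA (part of the glucocorticoid response element), TGACG (part of the cyclic AMP response element) or ACGTG (core of the hypoxia response element). The Ace window lies at chr11:105967698-105967997 on the plus strand. Ace has another RefSeq window at chr11:105974939-105975238, which begins 7241 bases further on and lies inside the gene. A form of the enzyme found in testis is known to start within the gene, and a value per gene does not separate the forms. The Enpep window lies at chr3:129332700-129332999 and the Agt window at chr8:124569657-124569956, both on the minus strand.
Ace, first window: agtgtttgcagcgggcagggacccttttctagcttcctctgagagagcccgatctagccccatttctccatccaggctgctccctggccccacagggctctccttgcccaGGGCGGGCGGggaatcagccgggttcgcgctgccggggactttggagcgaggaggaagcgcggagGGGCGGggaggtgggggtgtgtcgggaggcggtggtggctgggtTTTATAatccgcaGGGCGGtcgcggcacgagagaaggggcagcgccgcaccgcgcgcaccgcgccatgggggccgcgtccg
Ace, inner window: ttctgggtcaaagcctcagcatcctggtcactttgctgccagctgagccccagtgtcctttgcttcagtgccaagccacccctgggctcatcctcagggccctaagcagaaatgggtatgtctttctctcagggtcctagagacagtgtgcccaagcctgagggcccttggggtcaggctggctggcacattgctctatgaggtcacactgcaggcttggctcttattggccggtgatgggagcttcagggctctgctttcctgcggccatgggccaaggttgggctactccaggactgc
Enpep: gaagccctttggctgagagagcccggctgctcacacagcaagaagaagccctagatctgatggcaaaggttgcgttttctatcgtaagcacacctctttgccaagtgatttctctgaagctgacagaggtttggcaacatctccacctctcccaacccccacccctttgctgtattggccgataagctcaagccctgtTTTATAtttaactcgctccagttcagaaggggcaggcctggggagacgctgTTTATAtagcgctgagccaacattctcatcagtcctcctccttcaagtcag
Agt: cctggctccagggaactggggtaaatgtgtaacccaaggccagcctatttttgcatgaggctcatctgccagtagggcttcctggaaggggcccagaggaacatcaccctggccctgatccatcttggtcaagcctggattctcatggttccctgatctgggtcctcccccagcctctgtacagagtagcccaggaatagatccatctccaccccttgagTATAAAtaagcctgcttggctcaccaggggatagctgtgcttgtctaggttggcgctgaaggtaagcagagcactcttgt
The first Ace window held GGGCGG 4 times, at offsets −140, −136, −75 and −18 from the start counted as 0, of which the first 2 overlap, and TATAAA on the other strand at offset −31. The Enpep window held TATAAA on the other strand at offsets −52 and −1, and the Agt window held it on the same strand at offset −30. None of these 4 windows, nor that of Agtr2, held any of the glucocorticoid, cyclic AMP and hypoxia motifs. Of all 32851 RefSeq windows, 13.6% held TATAAA, 35.7% GGGCGG, 19.0% AGAACA, 20.8% TGACG and 19.6% ACGTG. These are letter matches only, and factor binding was not measured.

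The libraries stood apart by group and unevenly within the room temperature group. The read depth behind the values, which their spacing gives back, was 39.7 to 48.7 M (mega) at room temperature and 32.7 to 35.1 M in cold. On the first principal component the cold libraries scored 69.3 to 77.9 and room temperature replicates 1 and 2 scored −81.3 and −94.2, with replicate 3 in between at −44.0. Across all genes 35.5% of the 15238 tested were called higher in cold and 35.0% lower (5412 and 5335 genes, limma with Benjamini-Hochberg adjustment, adjusted p under 0.05). Under the deposited scaling by library totals 65.1% of the called genes were higher, against 50.4% under the scaling used here, and the all-gene median shifted from 0.003 to 0.29 (log2). A call in either direction (70.5% of genes) was therefore common, and so were groups that did not overlap (76.2%, with 38.4% of genes higher and 37.8% lower in cold).

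Of the 5 members, 4 had enough reads to test, of which 3 rose in cold, 0 fell and 1 was not called. The risers were the enzyme genes Ace and Enpep and the receptor gene Agtr1a. With 35.5% of all genes called higher, a count over 4 genes says little by itself, and the sizes are given below. Values are scaled RPKM, reads per kilobase of gene span and per M reads divided by a composition factor for the library, unless another scale is named. The span runs from start to end of the gene with introns, so levels are compared between genes only per kilobase of exon. Changes are differences of log2(scaled RPM + 0.5), with RPM the reads per M reads, which understates the change of genes near 0.5 RPM.

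Agt (ENSMUSG00000031980, chromosome 8, 124556534 to 124569706, minus strand, GENCODE M21 on GRCm38), the gene of the only precursor of all angiotensins, was low in every library. It stood at 0.0549, 0.0584 and 0.0577 in room temperature replicates 1 to 3 and at 0.0622, 0.0376 and 0.085 in the cold ones. The room temperature values lay inside the range of the cold values, so the groups overlapped. These levels rest on 25.1 to 32.1 reads per room temperature library and 18.1 to 43.9 per cold library. The change was 0.04 ± 0.21 (SE) on the log2 scale, with a 95% interval from −0.45 to 0.53 (adjusted p = 0.87, limma). A change inside that interval was not detectable at this depth. The added 0.5 shrinks changes of low genes such as Agt, so the interval does not bound the change in its RNA. The SE was 0.32 with 0.1 added instead, and 0.37 with voom on recovered reads. The precursor that circulates comes mainly from liver, and the 5 hepatocyte markers looked at had too few reads to test.

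Ace (ENSMUSG00000020681, chromosome 11, 105967945 to 105989964, plus strand) had the largest change of the members. Its room temperature values were 0.754, 0.538 and 3.35, and its cold values were 21.5, 19.8 and 17.4. All cold libraries lay above all room temperature libraries, and within the room temperature group replicate 3 was 5.19 times the mean of the other replicates. The mean rose from 1.55 ± 1.57 (SD, n = 3) to 19.6 ± 2.08 (SD, n = 3), which is 12.6-fold. On the log2 scale the change was 4.10 ± 0.64 (SE), with an adjusted p of 0.0014 (limma), and 0.302% of tested genes rose more. Without room temperature replicate 3 it was 4.86 ± 0.15 (SE), with an adjusted p of 1.0e-07 (limma). Reads behind Ace numbered 493.5 to 2835 in the room temperature libraries and 15016 to 17488 in the cold ones. The authors' deposited table gives a log2 fold change of 3.93 and a q value of 4.8e-08 for Ace.

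Enpep (ENSMUSG00000028024, chromosome 3, 129269175 to 129332720, minus strand), whose product is known from pericytes, kidney and gut brush borders, had the next largest change. It stood at 0.0973, 0.0596 and 0.204 at room temperature and at 0.632, 0.628 and 0.795 in cold. The groups did not overlap, and room temperature replicate 3 was again the highest of its group, at 2.60 times the mean of the other replicates. The mean rose 5.70-fold, from 0.12 ± 0.0747 (SD, n = 3) to 0.685 ± 0.0955 (SD, n = 3). The log2 change was 2.59 ± 0.39 (SE, adjusted p = 0.0012, limma), and 3.01 ± 0.20 without room temperature replicate 3. For Enpep the authors' deposited table gives a log2 fold change of 2.79 and a q value of 0.00013.

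Agtr1a (ENSMUSG00000049115, chromosome 13, 30336441 to 30382867, plus strand), the main type 1 angiotensin receptor gene of mice, also rose. Its values were 0.0458, 0.0444 and 0.0451 at room temperature and 0.202, 0.143 and 0.193 in cold. The room temperature libraries were nearly equal, replicate 3 included at 1.00 times the mean of the others, and every cold library lay above them. The mean went from 0.0451 ± 0.000691 (SD, n = 3) to 0.179 ± 0.0315 (SD, n = 3), a 3.98-fold rise. The log2 change was 1.75 ± 0.17 (SE), with an adjusted p of 0.0001 (limma). Agtr1b, the related type 1 receptor gene, had 0, 2.6 and 4.2 reads at room temperature and 10.4, 10.3 and 5.5 in cold, too few to pass the filter. No source used here says how reads shared by such related genes were assigned.

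Agtr2 (ENSMUSG00000068122, chromosome X, 21484544 to 21489164, plus strand), the type 2 receptor gene, was at the limit of detection. It was listed at 0.022, 0 and 0 RPKM at room temperature and at 0.007, 0.007 and 0.006 in cold. These values amount to 4 reads in room temperature replicate 1, none (0) in replicates 2 and 3, and about 1 read in each cold library. A count of 0 allows up to 3 reads, so no difference was detectable at this depth and no fold is given. The authors' deposited table gives a p-value of 1 for Agtr2.

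**Figure D1:**
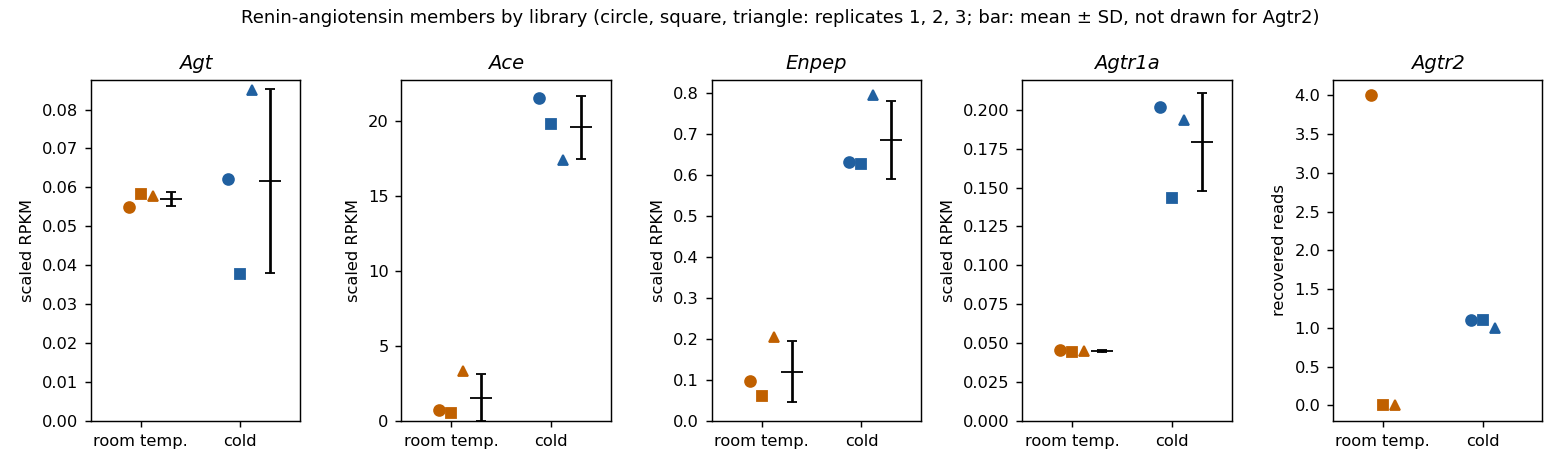
Values of the 5 members in each library, in scaled RPKM (recovered reads for Agtr2), with room temperature in orange and cold in blue, symbols for replicates and bars for the mean ± SD of 3 libraries, not drawn for Agtr2. Ace, Enpep and Agtr1a in cold lie above every room temperature library, Agt overlaps between groups, and Agtr2 has at most 4 reads in a library.

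Per kilobase of exon the members kept the same order of mean levels in both groups. At room temperature Ace stood at 6.45 ± 6.53 (SD, n = 3) scaled reads per M and exon kilobase, Enpep at 1.62 ± 1.01, Agtr1a at 0.752 ± 0.0115, Agt at 0.397 ± 0.0129 and Agtr2 at 0.0117 ± 0.0202. Ace and Enpep, neighbours in this order, overlapped at room temperature (2.24 to 14.0 against 0.805 to 2.75), and Enpep lay just above Agtr1a (0.74 to 0.763). In cold the levels were 81.5 ± 8.68 for Ace, 9.25 ± 1.29 for Enpep, 2.99 ± 0.525 for Agtr1a, 0.429 ± 0.165 for Agt and 0.00827 ± 0.000706 for Agtr2 (SD, n = 3 each), and no neighbours overlapped. Exons make up 6.00% of the span of Agtr1a, 7.41% of Enpep, 14.4% of Agt, 24.0% of Ace and 72.0% of Agtr2. Whether reads in introns were counted is unknown. If they were, dividing by exon length raises genes with a small exon share against the others, so the order holds only for reads in exons. Annotated genes overlap Ace (the antisense gene Gm11651), Enpep (the pseudogene Gm42628) and Agtr1a (the sense intronic gene Gm48161). Strand was not stated, so reads of these pairs cannot be told apart.

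The other genes of the pathway, 22 listed of which 17 were tested, changed in both directions. In cold 5 of them were called higher and 9 lower. Their median log2 change was −0.44, beside 0.003 over all genes. The share called higher was 29.4% and the share called lower 52.9%, beside 35.5% and 35.0% of all genes tested. Of the 9 lower genes, Mcpt4 and Klk1 passed the read filter only through the room temperature group, where they were high, so their calls are not independent of the filter. With the members included, 27 genes were listed and 21 tested, with 8 higher and 9 lower. Under the deposited scaling by library totals the same list had 10 higher and 8 lower, so the balance of directions depends on the scaling.

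Among the substrate gene and the genes that help form angiotensin peptides, 1 of 7 tested, Ace, rose and 4 were called lower, Mcpt4 and Klk1 among them. These shares were 14.3% and 57.1%, beside 35.5% higher and 35.0% lower over all genes tested. Mcpt4, a mast cell chymase that can make angiotensin II without the converting enzyme, went from 0.774, 0.159 and 0.335 at room temperature to 0.0631, 0.0323 and 0.0197 in cold. Its cold libraries held 2.1 to 6.2 reads, against 17.8 to 72.1 at room temperature. Its log2 change was −1.31 ± 0.35 (SE), and it was not tested in the fits that left out a room temperature library. Cma1, another mast cell chymase, fell by 1.03 ± 0.22 (SE, adjusted p = 0.0037, limma) on the log2 scale, with 5.1 to 10 reads per cold library. Klk1, a tissue kallikrein with many close relatives in mice that may share its reads, had 29.4 to 46.9 reads per room temperature library and 5 to 6.1 per cold library, a log2 change of −1.22 ± 0.16 (SE). It too was untested without a room temperature library. Ctsd, the lysosomal protease cathepsin D, went from 16.3 ± 2.26 to 8.70 ± 1.20 (SD, n = 3). Atp6ap2, the prorenin receptor, stood at 1.49 ± 0.0367 against 1.48 ± 0.11 and was not called, with a log2 change of −0.01 that became 0.31 (adjusted p = 0.026, limma) under the deposited scaling. Mcpt4, Cma1 and the carboxypeptidase gene Cpa3 are themselves among the 7 mast cell markers. Of these 7 markers 5 were tested, of which 3 were lower and 2 higher, with summed levels of 0.882 to 2.49 at room temperature and 1.02 to 1.41 in cold. The other tested markers were the tryptase gene Tpsb2, with a log2 change of −2.08, and the receptor gene Kit, which lung endothelium also expresses, with 4.04. The part of mast cells in the chymase values was not tested. Ctsg, a neutrophil cathepsin, had 0 reads in the room temperature libraries and 3, 7 and 2 in cold, too few to pass the filter. Ren1, the renin gene, Cma2 and the receptor gene Mrgprd had no row under these symbols in the deposited values, so they were not analysed.

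Of the 10 genes tested that process or break down angiotensins, 4 rose, Enpep among them, and 5 fell. That is 40% and 50%, beside 35.5% higher and 35.0% lower over all genes tested. With 70.5% of all genes called in either direction, counts over so few genes say little by themselves. Thop1, a thimet oligopeptidase that cuts angiotensin I to angiotensin 1-7, fell from 3.15 ± 0.606 to 0.676 ± 0.154, a log2 change of −2.16 ± 0.20 (SE, adjusted p = 9.8e-05, limma). Rnpep, an aminopeptidase for basic residues, fell by 1.35, Nln, neurolysin, by 0.82, and Prep, prolyl endopeptidase, by 0.74 on the log2 scale. Ctsa, a lysosomal carboxypeptidase, was at the threshold (−0.44, adjusted p = 0.049, limma) and missed it in 9 of the 13 alternatives.

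Mme, neprilysin, which also makes angiotensin 1-7 from angiotensin I, rose while Thop1 fell. It stood at 0.0801, 0.0619 and 0.105 at room temperature and at 0.254, 0.309 and 0.34 in cold, a log2 change of 1.85 ± 0.20 (SE, adjusted p = 0.00016, limma). Prcp, a carboxypeptidase that also acts on angiotensin II, rose by 0.98 on the log2 scale (adjusted p = 0.0043), and Cpa3, mast cell carboxypeptidase A, by 0.69 (adjusted p = 0.016). The call of Cpa3 was lost without cold replicate 1 (limma adjusted p = 0.070) and without cold replicate 3 (0.053), and its change ran from 0.27 to 1.57 over the alternatives. Anpep, aminopeptidase N, which acts on angiotensin III, stood at 0.898 ± 0.0783 against 0.854 ± 0.14 (SD, n = 3) and was not called, with a log2 change of −0.08 that became 0.24 under the deposited scaling.

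The receptor and adaptor group had 4 tested genes, of which 3 rose and 0 fell. So few genes say little beside the 35.5% of all genes called higher and 35.0% lower. Mas1, the receptor for angiotensin 1-7, stood at 0.0103, 0.0199 and 0.0105 at room temperature and at 0.0675, 0.0618 and 0.0957 in cold. The groups did not overlap, and the log2 change was 1.54 ± 0.21 (SE, adjusted p = 0.00045, limma) on 9.7 to 101.6 reads per library. Mas1 was called higher in all 13 alternatives, but the size of its change ran from 0.76 to 2.45. Agtr1a is given above. Lnpep, an aminopeptidase that binds angiotensin IV, rose by 0.71 (adjusted p = 0.036), and missed the threshold in 3 of the 6 fits without a library, with adjusted p up to 0.12. Agtrap, which binds the type 1 receptor and takes part in its internalisation, was not called at −0.05, and stood at 0.27 (adjusted p = 0.023) under the deposited scaling.

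**Figure D2:**
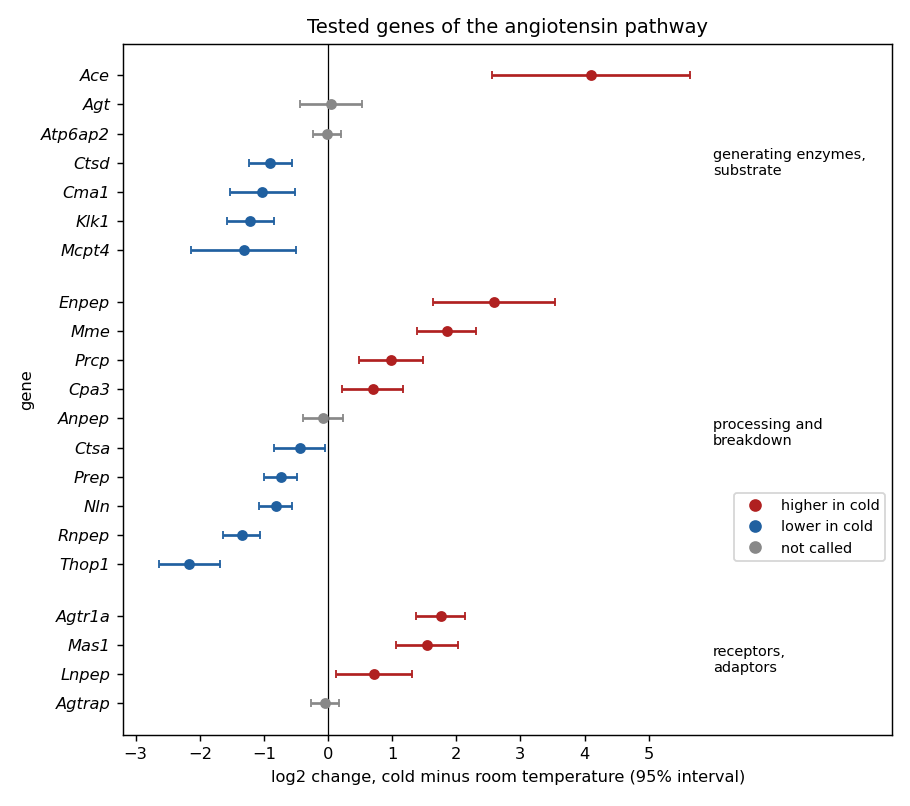
Changes of the 21 tested pathway genes in cold against room temperature, on the log2(scaled RPM + 0.5) scale with 95% intervals, grouped by role and coloured by call. Ace at 4.10 and Enpep at 2.59 lie furthest to the right, and Thop1 at −2.16 furthest to the left on this scale, which shrinks the changes of genes with few reads. With voom on recovered reads Mcpt4 at −3.17 and Klk1 at −2.71 lie below Thop1 at −2.23.

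Converting enzyme also breaks down bradykinin, a vasodilator peptide, so the kinin genes were read from the same fit. Of 12 tested, 6 were called higher and 3 lower (50% and 25%, beside 35.5% and 35.0% of all genes), with a median of 0.61 on the log2 scale. Ace and Mme, among the higher, and Klk1, among the lower, are also in the pathway list. Bdkrb2, the constitutive bradykinin receptor, stood at 0.0037 ± 0.0023 against 0.0176 ± 0.0023 (SD, n = 3), on 1.6 to 6.4 reads per room temperature library and 17.8 to 24.7 per cold library. It passed the filter only through the cold group and was not tested in the fits that left out a cold library. Bdkrb1, the inducible receptor, was not called at 0.43, but was called at 0.73 (adjusted p = 0.017, limma) under the deposited scaling. Of 14 tested genes whose products couple to or regulate angiotensin receptors, 6 rose and 2 fell (42.9% and 14.3%, beside 35.5% and 35.0% of all genes), with a median of 0.40. Gnaq, a G protein alpha subunit through which the type 1 receptor signals, rose by 1.28 ± 0.09 (SE, limma adjusted p = 5.4e-05). Of the other alpha subunit genes listed, Gna13 rose by 1.10, and Gna11 at −0.19 and Gna12 at −0.14 were not called. Mtus1, a type 2 receptor interacting protein, fell by 0.71 ± 0.12 (SE, limma adjusted p = 0.0011). Plcb3, a phospholipase C acting below Gq, fell by 0.71 ± 0.11 (SE, adjusted p = 0.00095), on the log2 scale as the others.

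Markers of many cell types, among them those known to carry these enzymes, moved in the same libraries. Their counts stand beside 35.5% of all genes called higher, 35.0% called lower and 70.5% called in either direction. The share of pericyte markers called, 70%, was near that of all genes. All 14 endothelial markers tested rose, with a median log2 change of 3.85 and a summed level of 4.60 to 56.3 at room temperature and 230.3 to 256.5 in cold. Pecam1 and Cdh5, junction genes of endothelium, had log2 changes of 3.77 and 4.65. In room temperature replicate 3 Pecam1 was 4.07 times and Cdh5 7.12 times the mean of the other replicates, beside 5.19 times for Ace. Of 10 pericyte markers 7 rose and 0 fell (median 1.21, summed level 2.67 to 6.21 against 12.8 to 17.6), with Pdgfrb, a growth factor receptor of these cells, at 2.59. All 8 smooth muscle markers fell (median −2.24, summed level 214 to 266 against 35.1 to 56.9), among them the actin gene Acta2 at −2.39. All 6 club cell markers fell as well (median −2.08, summed level 17633 to 22348 against 4647 to 5539), with Scgb1a1, their main secretory product, at −1.96. No marker in these 4 lists was at 0 in all libraries. Of the other lists, 5 of 7 alveolar type 1 markers rose and 1 fell (median 2.62), 6 of 8 alveolar type 2 markers rose (2.23), and 6 of 10 fibroblast markers rose and 3 fell (2.15). Ciliated cell markers fell in 7 of 7 (−2.61), cardiomyocyte markers in 6 of 6 (−2.05), adipocyte markers in 6 of 7 (−2.10) and mesothelial markers in 1 of 5 (−1.56). Room temperature replicate 3 lay away from the cold libraries in the mesothelial markers. Their log2 mean, centred over the 6 libraries, was 2.47 there and −0.004 and −0.29 in replicates 1 and 2. In cold it was −0.99 to −0.47. The part of all these markers in the changes of the enzyme and receptor genes was not tested.

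**Figure D3:**
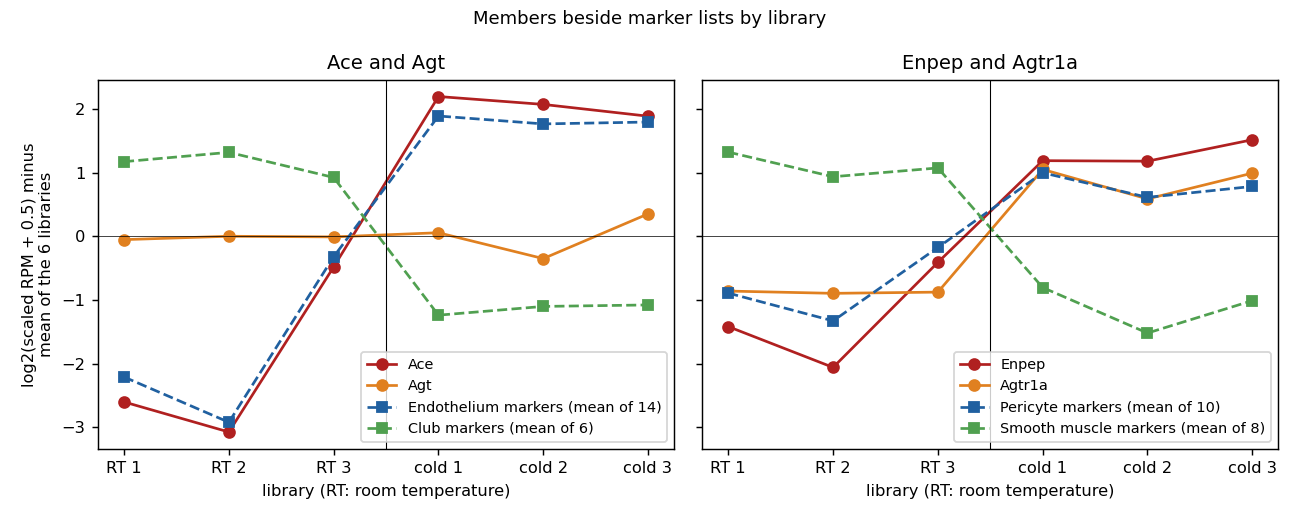
Log2(scaled RPM + 0.5) of Ace, Agt, Enpep and Agtr1a in each library, minus the gene's mean over the 6 libraries, beside marker lists averaged the same way, with lines only joining the points of a gene or list. In room temperature replicate 3 Ace and the endothelial mean lie nearer to the cold libraries than in replicates 1 and 2, and Agtr1a does not.

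Ratios within a library set these genes against each other without the scaling between libraries, apart from the 0.5 added. They are ratios of RPM, not corrected for gene length, so the difference between groups is the quantity to read. There are 4 ratios given here, and those with Agtr2 or Agtr1b could not be computed, since neither gene was tested. The log2 ratio of Enpep to Anpep, which act in sequence on angiotensin II, went from −2.47, −3.15 and −1.26 to 0.37, 0.001 and 0.75, without overlap. The mean difference was 2.67 (exact two-sided permutation p = 0.1, the smallest that 3 against 3 allows, and 0.133 adjusted over the 4 ratios).

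Against the markers the differences were smaller. The log2 ratio of Ace to the endothelial marker mean was 1.30, 1.54 and 1.53 at room temperature and 2.00, 2.00 and 1.78 in cold. The cold libraries were higher by 0.47 without overlap, against a change of 4.10 for Ace itself (exact two-sided permutation p = 0.1, 0.133 adjusted over the 4 ratios). Enpep against the pericyte marker mean went from 0.58, 0.38 and 0.87 to 1.30, 1.67 and 1.84, a difference of 0.99 without overlap (exact permutation p = 0.1, 0.133 adjusted). Agtr1a against the pericyte mean was −0.77, −0.37 and −1.50 at room temperature and −0.75, −0.82 and −0.59 in cold. These values overlapped, with a difference of 0.16 (exact permutation p = 0.8, 0.8 adjusted) whose sign turned to −0.16 without room temperature replicate 3.

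**Figure D4:**
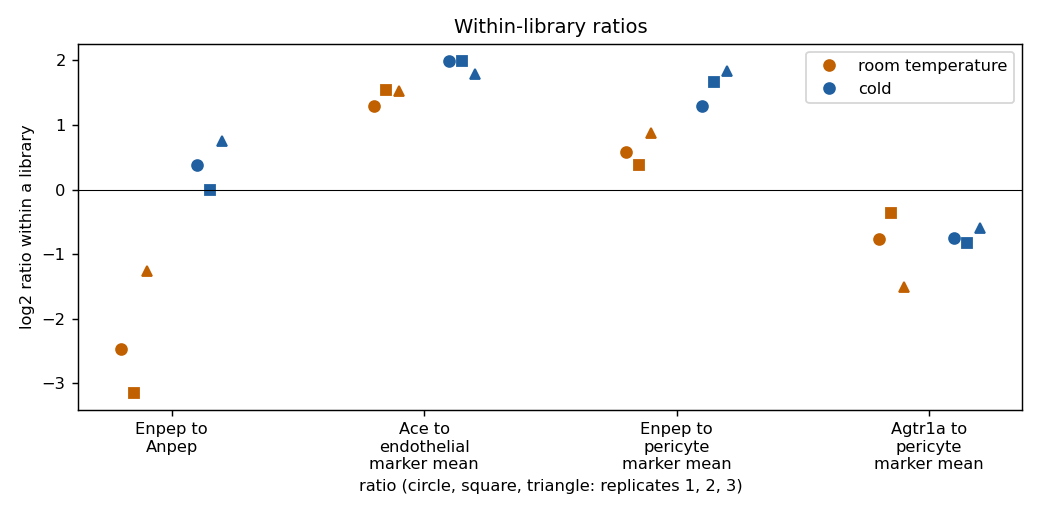
Log2 ratios within each library for the 4 ratios, room temperature in orange and cold in blue. Enpep to Anpep differs most, by 2.67, and Agtr1a to the pericyte marker mean overlaps between groups.

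The genes whose profiles over the 6 libraries lay closest to each member were sought among 12590 or 12591 tested genes of at least moderate level. Likeness was the root mean square difference of centred log2 values, and the libraries share the group difference that most genes carry. The 5 nearest to Ace were Clec9a, Egfl7, Notch4, Rab44 and Tie1, at 0.116 to 0.175, and Tie1 is also in the endothelial list. Nearest to Enpep were Qk, Plxnc1, Tmtc1, Hip1 and Cped1, at 0.0888 to 0.106. Nearest to Agtr1a were Tmem140, Snx32, Arhgef3, Tmem120b and Als2cl, at 0.0766 to 0.105, and nearest to Agt were AI987944, Mtr, Klhl13, Smg8 and Gtpbp8, at 0.0623 to 0.0965.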

How the data were processed

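The authors deposited an RPKM value for each gene in each library, with 3 decimals. Reads were placed on mm10, per the submitters' processing notes. No source used here names the aligner, the counter or the annotation. The table also holds the authors' log2 fold change, which in all 18174 rows is the log2 ratio of group means plus 0.001, and their deposited p-value and q value, whose test is not given. Value times gene span in GENCODE M21 fell on whole multiples of a step per library (phase coherence 0.799 to 0.852, against 0.161 to 0.216 for exon length), which gave depth and recovered reads. Of low values in genes under 5 kb, 82.8% to 86.3% were whole within 0.1. Whether reads or fragments were counted is unknown. Rows without a span (92) were left out.

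RPM (RPKM times span) was scaled between libraries with trimmed means of M values, taken without weights (30% of ratios, 5% of averages trimmed). Limma 3.58.1 in R 4.3.3 (eBayes, trend and robust) was fitted to log2(RPM + 0.5) with group as the only term, two-sided, with Benjamini-Hochberg adjustment over 15238 genes. Tested genes had the equivalent of 10 reads of the median library in 3 libraries and 15 in all. On simulated data with 14898 genes tested, 94% of changes of 1 and 100% of changes of 2 on the log2 scale were recovered, and 5.83% of calls were false. The simulation drew both groups from the room temperature means with a fixed spread, and changed 100 genes at each size, equally up and down. Its rates hold for that setting and not for these data, where 70.5% of genes were called and room temperature replicate 3 stood apart. Members and lists were chosen with earlier results of these data known. 1 gene of the pathway list is not reported here, and neither is its ratio. Named genes are the members, the pathway list, the 5 nearest profiles and 5 marker genes; of the kinin, partner and mast cell lists some genes were named after their values were seen. Libraries within a group differed beyond sampling noise (chi-square per degree of freedom 15.8 to 88.1). Same-numbered libraries deviated together (correlations 0.115, 0.149 and 0.155 over genes), so the numbers were treated as pairs in an alternative. The other alternatives were the deposited scaling, other pseudocounts (0.1 and 2), log2(RPKM + 0.01), no low-value filter, voom on recovered reads and leaving out each library. Columns of unmatched libraries number 0.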

Additional observations from a re-analysis of the deposited data

How the results depend on the processing

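The calls of Ace, Enpep and Agtr1a kept their direction and stayed past the threshold in all 13 alternatives, with log2 changes of 3.57 to 4.86, 2.19 to 3.01 and 1.32 to 2.05. The pathway list had 6 to 10 genes higher and 6 to 9 lower. With the replicate number as a block, 5350 genes were higher and 5319 lower over all genes, the pathway list had 8 and 9, and no call of a tested member or gene of the pathway, kinin or partner lists changed; the named markers and nearest profiles were not read under the block. Agt ranged from −0.11 to 0.24 when a library was left out, the low end without cold replicate 3, and was not called in any alternative. The Agtr1a to pericyte ratio was −0.034 with voom and ranged from −0.16 to 0.41 without a library. Over the 13 alternatives the group difference of the other ratios kept its sign but moved in size. It ran from 0.68 to 1.15 for Enpep to pericyte, 0.36 to 0.67 for Ace to endothelium and 2.24 to 3.19 for Enpep to Anpep. Kinin genes called lower numbered 1 with log2(RPKM + 0.01), and 1 to 2 without a library. Under the deposited scaling the changes of Atp6ap2, Anpep, Agtrap, Xpnpep1, Gna11 and Gna12 turned to 0.31, 0.24, 0.27, 0.20, 0.13 and 0.18, and with log2(RPKM + 0.01), which is also unscaled, to 0.31, 0.24, 0.27, 0.20, 0.13 and 0.18. This follows the shift of the median of all genes. Without a library Atp6ap2 ranged from −0.050 to 0.062, Anpep from −0.18 to 0.020 and Rgs2 from −0.13 to 0.32. Without the filter Agtr1b and Ctsg had adjusted p of 0.022 and 0.042 and Agtr2 of 0.85 (limma). Changes of low genes moved with the added constant: Mcpt4 was −2.41, Klk1 −2.17, Cma1 −1.77, Cpa3 1.25 and Bdkrb2 1.66 with 0.1, and −3.17, −2.71, −2.12, 1.57 and 2.33 with voom. With 2 they were −0.54, −0.48, −0.42, 0.27 and 0.27. Mas1 moved likewise, to 2.21 with 0.1, 2.45 with voom and 0.76 with 2. Bdkrb1 was called with log2(RPKM + 0.01) at 0.81 (limma adjusted p = 0.019). Depth limits Agt and Agtr2.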
